A study of Homo sapiens with 12 samples.

Results

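Transcripts of 10 genes used as markers or regulators of stem cells and cancer stem cells were followed in HCT116, a line from colon cancer, and in PANC1, a line from pancreatic adenocarcinoma, treated with inhibitors of the co-activators CBP and p300. The genes were CD44, PROM1, SOX9, SOX4, SOX2, ALDH1A1, ALDH1A3, BMI1, POU5F1 and NANOG. They were chosen by name, and each had 1 row among the 34687 rows of the expression table. RNA had been hybridised to Illumina HumanHT-12 expression BeadChips, on which the brightness of labelled RNA bound to a probe is read as signal intensity. Cells of each line had been kept for 12 or 96 h in 0.05% DMSO (the solvent) or in a drug, ICG-001 or C646, each at 10 uM. ICG-001 blocks the contact of CBP with β-catenin, and C646 inhibits the histone acetyltransferase activity of CBP and p300, so the study asked whether interfering with CBP alone differs from inhibiting both. By the study's methods, cells for 96 h were less confluent than cells for 12 h when treatment began and were passaged during it, so that duration and culture density cannot be told apart between the times. Each of the 12 combinations of line, treatment and time had 1 column of values, the authors' mean of 2 arrays (of 3 arrays for PANC1 ICG-001 12 h). Without values of single arrays no difference below has an error or a replicate check, no test was run, and the number of arrays behind a column limits its precision.

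Cancer stem cells are tumor cells able to renew themselves and to seed new growth, and they are usually recognised by surface proteins, by aldehyde dehydrogenase activity or by transcription factors shared with normal stem cells. CD44 is a receptor for hyaluronan, and PROM1 (CD133) is a membrane protein of cell protrusions. SOX9 marks intestinal crypt progenitors and pancreatic duct cells, SOX4 is a SOX factor active in many epithelial tumors, and SOX2, POU5F1 (OCT4) and NANOG form the core network of pluripotent cells. ALDH1A1 and ALDH1A3 oxidise retinaldehyde to retinoic acid and are main sources of the aldehyde dehydrogenase activity used to sort such cells. BMI1 is a Polycomb protein of the complex that ubiquitinates histone H2A. In colon epithelium, β-catenin together with TCF7L2 drives crypt genes, and CD44, SOX9 and SOX4 are known targets of this WNT pathway.

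The sequence just before the transcription start is shown for 3 genes on which the results below turn. SOX4 was lower with either drug in HCT116. ALDH1A3 was lower there with C646 at 12 h and higher with ICG-001 at 96 h. PROM1, detected in HCT116 only, is shown at the 1 of its RefSeq starts whose window held a match to the TCF/LEF letters. Each sequence is 250 bases from RefSeq (GRCh38.p14), 5′ to 3′ on the gene's strand. Capitals mark a match to the TCF/LEF letters.
SOX4 (chr6:21593501-21593750, + strand): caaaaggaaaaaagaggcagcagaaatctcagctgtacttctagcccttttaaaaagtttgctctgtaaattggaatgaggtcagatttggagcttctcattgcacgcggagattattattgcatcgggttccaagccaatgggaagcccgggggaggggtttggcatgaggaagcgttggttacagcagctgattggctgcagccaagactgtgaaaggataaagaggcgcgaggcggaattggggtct
ALDH1A3 (chr15:100879581-100879830, + strand): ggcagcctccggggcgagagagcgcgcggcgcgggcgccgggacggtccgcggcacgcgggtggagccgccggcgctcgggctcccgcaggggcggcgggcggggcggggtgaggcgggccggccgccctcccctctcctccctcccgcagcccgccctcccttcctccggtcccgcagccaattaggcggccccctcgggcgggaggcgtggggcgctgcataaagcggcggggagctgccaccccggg
PROM1 (chr4:16076119-16076368, - strand, 1 of its RefSeq starts): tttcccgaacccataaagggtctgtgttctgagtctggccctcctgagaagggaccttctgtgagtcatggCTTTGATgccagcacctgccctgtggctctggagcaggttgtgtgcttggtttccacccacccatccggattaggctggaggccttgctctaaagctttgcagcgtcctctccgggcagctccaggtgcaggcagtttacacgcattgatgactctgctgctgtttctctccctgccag
The letters CTTTGAT (or ATCAAAG on the other strand), bound by TCF/LEF factors, and AACAAT (or ATTGTT), bound by SOX factors, were searched in 12 such windows of 8 of the genes. CD44, BMI1, SOX2, ALDH1A1 and NANOG were the other genes with windows. The PROM1 window shown held CTTTGAT once. No other window held it, those at the other PROM1 starts included, and AACAAT was in none. Which PROM1 start is used in these cells was not measured. Among all 35116 RefSeq windows of this length, 2.26% held CTTTGAT and 8.98% held AACAAT. The ALDH1A3 window was 82.4% G or C with 38 CG pairs, the SOX4 window 48.8% with 8 CG pairs, and the PROM1 window 56.8% with 5, against medians of 58% and 11 over all windows. A match describes letters only, and enhancers further away were not searched.

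Of the 10 genes, 6 were above background in HCT116 and 5 in PANC1. Background was left in the signal by the authors, so a detection limit was set for each column at the level that about 1% of background would exceed, taking log2 background as normal around the peak of the column's values with the SD of the values below the peak. Limits ran from 145.4 to 146.3 for the HCT116 columns and from 137.8 to 139.8 for the PANC1 columns, and 42.7% to 44.7% of all rows in a column were above it. Of 377 olfactory receptor rows, genes that epithelial cells mostly leave silent, 3.71% to 5.57% exceeded it in a column, a larger share than the 1% aimed at. CD44, SOX9, SOX4, ALDH1A3 and BMI1 exceeded it in all 12 columns. PROM1 exceeded it in all 6 HCT116 columns and in 0 of the 6 PANC1 columns. SOX2, ALDH1A1, POU5F1 and NANOG were at or under it in every column. Limits at 5 SD or at the 99th percentile of the olfactory receptor rows were higher in every column. For these genes they were thus no further check.

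**Figure D1:**
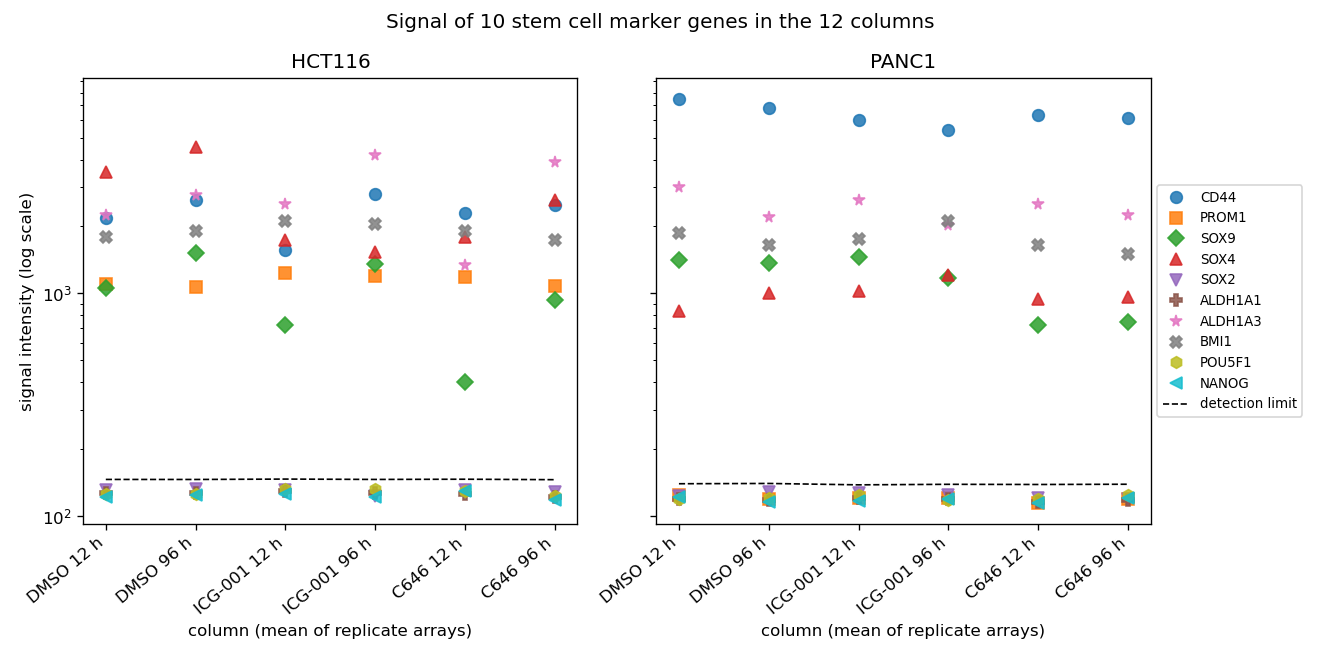
Signal intensity (log scale) of the 10 genes in each of the 12 columns, HCT116 at the left and PANC1 at the right, with the detection limit of each column as a dashed line. SOX2, ALDH1A1, POU5F1 and NANOG lie under the line in both lines and PROM1 only in PANC1, and each point is a mean of replicate arrays with no error.

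The pluripotency factors gave signals that could not be told from background. SOX2 ranged from 123.0 to 132.2 in HCT116 and from 119.3 to 128.6 in PANC1. POU5F1, whose transcript also has retrocopies elsewhere in the genome, ranged from 123.2 to 132.7 in HCT116 and from 117.3 to 124.2 in PANC1. NANOG was between 117.8 and 128.8 in HCT116 and between 113.8 and 121.0 in PANC1. None of the 3 exceeded 0.92 of a column's limit, so changes of these genes with a drug were not detectable, and no fold is given. ALDH1A1, the aldehyde dehydrogenase often used to mark stem-like cells, was as dim, at 121.8 to 129.9 in HCT116 and 114.9 to 120.4 in PANC1. These are averages over a culture, in which few cells with much of a transcript and many cells with little cannot be told apart.

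The detected genes differed between the lines. Signal distributions matched within a line but not between lines, so lines were compared after quantile normalization over all 12 columns, and by percentile of a gene within its own column. On this scale 3 of 6 genes differed at least 1.5-fold between HCT116 and PANC1 in DMSO at 12 h, where 24.1% of all rows compared did, and 3 of 6 at 96 h, where 25.8% of rows did. PROM1 was at least 8.17-fold higher in HCT116 at 12 h and at least 7.74-fold higher at 96 h, taking the PANC1 limit as the bound. SOX4 was 4.39-fold and 4.73-fold higher in HCT116. CD44 was lower in HCT116, by a log2 ratio of -1.85 at 12 h and -1.40 at 96 h, and it was lower in all 6 matched columns (-1.95 to -0.97). BMI1 (log2 ratios of 0.03 and 0.30), SOX9 (-0.29 and 0.26) and ALDH1A3 (-0.35 and 0.42) stayed under 1.5-fold in DMSO. With ICG-001, 4 of 6 genes differed between the lines at 12 h (24.7% of rows) and 3 of 6 at 96 h (24.2%), and with C646 5 of 6 at 12 h (23.5%) and 4 of 6 at 96 h (25.6%). PROM1 was higher and CD44 lower in HCT116 in each of these, and SOX4 was higher at least 1.5-fold in each but ICG-001 96 h.

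**Figure D2:**
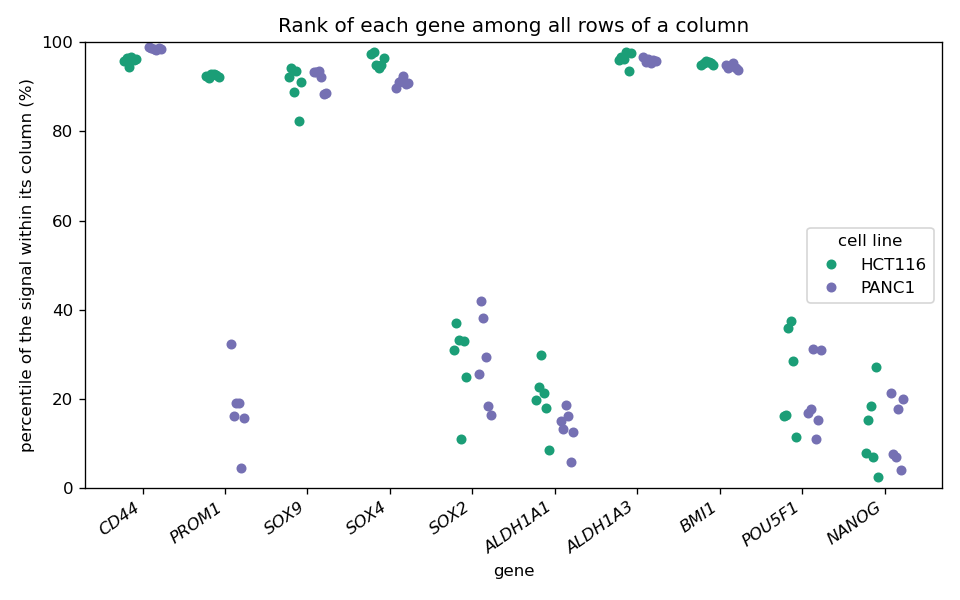
Percentile of each gene's signal among all rows of its column, with 1 point for each of the 6 HCT116 and 6 PANC1 columns. PROM1 separates the lines most, at 92.1 to 93.0 in HCT116 and 4.45 to 32.2 in PANC1, while BMI1 lies at 93.8 to 95.7 in both.

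The lines were also checked against marker genes. The simple epithelium genes KRT8, KRT18, CDH1 and EPCAM were above the limit in all columns of both lines. Of 8 colon epithelium genes, CDX2 alone was above it in all 6 columns of either line, at 354 to 452 in HCT116 and 187 to 223 in PANC1. In at least 1 column 3 of the 8 exceeded it in HCT116 and 4 in PANC1, so this list did not set the lines apart, and CDX1, VIL1 and CEACAM5 were at or under it in both. Of 4 pancreatic duct genes, 4 exceeded it in at least 1 HCT116 column and 2 in PANC1, where KRT7 (148 to 185) and KRT19 (5006 to 11748) did so in all 6 columns and CFTR in 0. Of 4 mesenchymal genes, 1 exceeded the limit in at least 1 HCT116 column (VIM) and 3 in PANC1. There VIM and CDH2 did so in all 6 columns and ZEB1 in 5, while FN1 was at or under it in both lines. VIM, an intermediate filament of mesenchymal cells, was at 257 to 335 in HCT116 and 14637 to 18144 in PANC1. Of 10 markers of other cell types, 4 exceeded the limit in at least 1 column of each line. PTPRC, CD3E and PECAM1 were at or under it in all 12 columns. COL1A1 (173 to 379) and ALB (148 to 170) were above it in all 12, CD14 in the 6 PANC1 columns (142 to 173) and COL3A1 in 5 of them.

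The surface markers CD44 and PROM1 stayed under 1.5-fold with either drug. In HCT116, CD44 had a signal of 2174 in DMSO, 1573 in ICG-001 and 2305 in C646 at 12 h, and of 2621, 2788 and 2488 at 96 h. The ICG-001 12 h column was the lowest of these, at a log2 ratio of -0.47 to DMSO, and the ratios of the 3 other drug columns were 0.09, 0.08 and -0.08. In PANC1, CD44 was 7511 in DMSO, 6008 in ICG-001 and 6354 in C646 at 12 h, and 6820, 5418 and 6150 at 96 h. Each of these 4 drug columns lay under its DMSO column, with log2 ratios from -0.33 to -0.15, none of which reached 1.5-fold. PROM1 varied by 1.16-fold over the 6 HCT116 columns, from 1068 in DMSO 96 h to 1235 in ICG-001 12 h, and its log2 ratios to DMSO were 0.02 to 0.17. Over the 12537 rows above the limit in all 6 HCT116 columns, the median ratio of the highest to the lowest column was 1.43, and 9.18% of them varied less than PROM1. Each gene has a single value here, so the splice forms of CD44 cannot be told apart.

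SOX4 was lower in all 4 drug columns of HCT116. Its signal was 3518 in DMSO, 1742 in ICG-001 and 1792 in C646 at 12 h, and 4554 in DMSO, 1541 in ICG-001 and 2635 in C646 at 96 h. Both DMSO columns lay above all 4 drug columns, and the ICG-001 96 h column was the lowest. The signal in ICG-001 was 2.02-fold lower than in DMSO at 12 h and 2.96-fold lower at 96 h. In C646 it was 1.96-fold lower at 12 h and 1.73-fold lower at 96 h. The fall with ICG-001 at 96 h placed SOX4 at the 0.185th percentile of all log2 ratios of that comparison. Background left in the signal lowers the ratios of dim rows, so this rank of a bright gene may be too extreme. PANC1 gave no such pattern. There SOX4 was 832 in DMSO, 1026 in ICG-001 and 943 in C646 at 12 h, and 1010, 1208 and 962 at 96 h, and its log2 ratios to DMSO (0.30, 0.26, 0.18 and -0.07) all stayed under 1.5-fold. The log2 ratio in HCT116 minus that in PANC1 was -1.31 and -1.82 for ICG-001 at 12 and 96 h, and -1.15 and -0.72 for C646, a difference that could not be tested. The 4.73-fold excess of SOX4 in HCT116 over PANC1 in DMSO at 96 h was 1.37-fold in ICG-001 and 2.87-fold in C646.

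SOX9 was lower with C646 in both lines. In HCT116 its signal was 1058 in DMSO, 722 in ICG-001 and 399 in C646 at 12 h, and 1522 in DMSO, 1351 in ICG-001 and 932 in C646 at 96 h. Within each time the C646 column was the lowest and the DMSO column the highest. In PANC1 it was 1407, 1462 and 723 at 12 h and 1376, 1167 and 747 at 96 h in the same order of treatments. The 2 C646 columns were thus the lowest of the 6 in PANC1, and the other 4 were between 1167 and 1462. For HCT116 the log2 ratio of C646 to DMSO was -1.41 at 12 h and -0.71 at 96 h, and for PANC1 it was -0.96 and -0.88. With ICG-001 it was -0.55 and -0.17 for HCT116, where the 12 h value, a 1.47-fold lower signal, lay just under the 1.5-fold threshold, and 0.06 and -0.24 for PANC1.

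**Figure D3:**
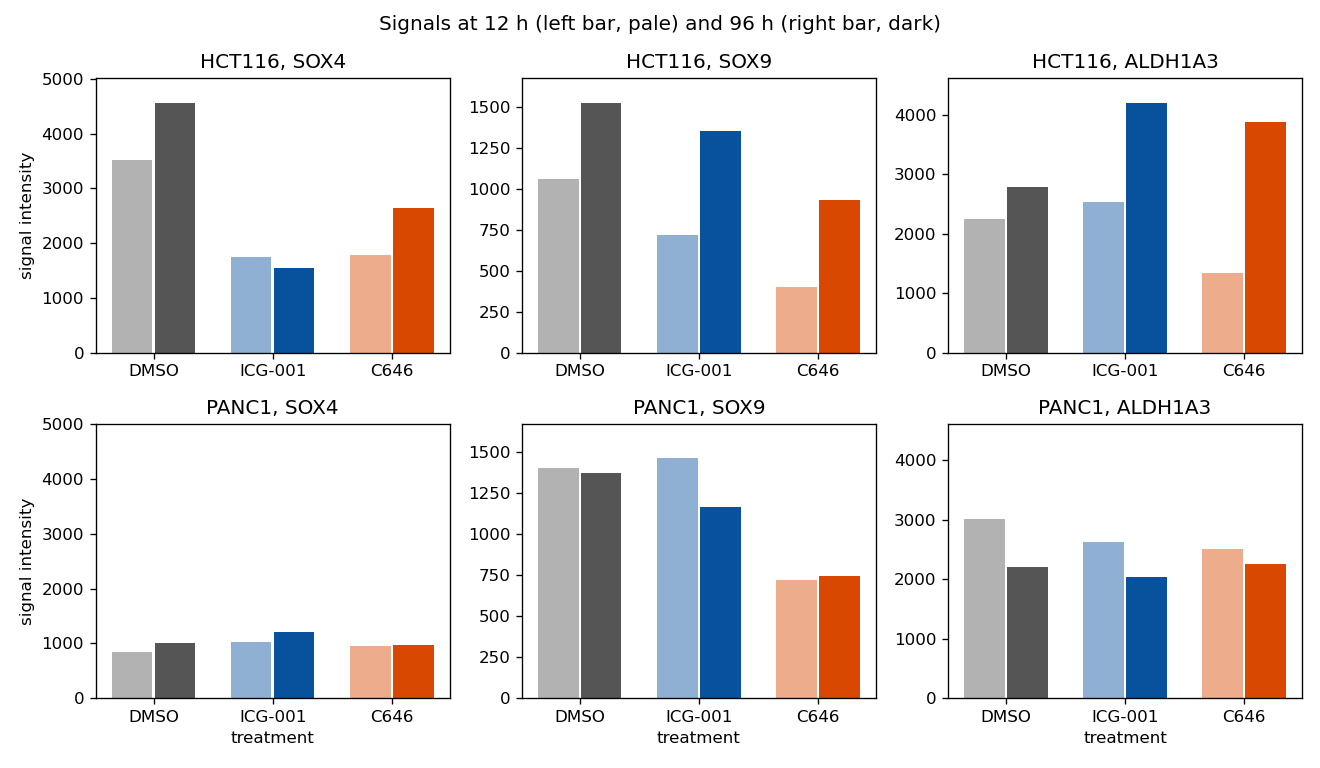
Signal intensity (linear scale from 0) of SOX4, SOX9 and ALDH1A3 in DMSO, ICG-001 and C646, with 12 h as the pale and 96 h as the dark bar, HCT116 above and PANC1 below, each bar being 1 column with no error. SOX4 is highest in DMSO in HCT116 only, SOX9 is lowest in C646 in both lines, and ALDH1A3 in HCT116 is lowest in C646 12 h.

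ALDH1A3 in HCT116 was lower with C646 at 12 h and higher with ICG-001 at 96 h. Its signal was 2246 in DMSO, 2530 in ICG-001 and 1347 in C646 at 12 h, and 2783 in DMSO, 4194 in ICG-001 and 3888 in C646 at 96 h. At 12 h C646 was the lowest column, and at 96 h both drug columns lay above DMSO. The signal in C646 was 1.67-fold lower than in DMSO at 12 h, whereas its log2 ratio of 0.48 at 96 h did not reach 1.5-fold. ICG-001 gave a log2 ratio of 0.17 at 12 h and a 1.51-fold higher signal at 96 h, just past the threshold, and under quantile normalization over all 12 columns the latter was under it. In PANC1 the signals were 3009, 2628 and 2513 at 12 h and 2202, 2033 and 2262 at 96 h for DMSO, ICG-001 and C646, with log2 ratios to DMSO between -0.26 and 0.04.

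BMI1 stayed under 1.5-fold in every drug comparison of both lines. Its signal lay between 1734 (C646 96 h) and 2106 (ICG-001 12 h) in HCT116 and between 1507 (C646 96 h) and 2108 (ICG-001 96 h) in PANC1. Its log2 ratios to DMSO ran from -0.13 to 0.24 for HCT116 and from -0.17 to 0.35 for PANC1. RefSeq also holds a readthrough transcript joining BMI1 to its neighbour COMMD3, and which transcripts the BMI1 value reads is not given.

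Counted over the genes that exceeded the limit with drug or with DMSO, changes of at least 1.5-fold numbered 8 over the 4 drug comparisons of HCT116 and 2 over those of PANC1, a difference that could not be tested. With ICG-001 in HCT116, 1 of 6 genes (SOX4, lower) changed at 12 h, where 9.48% of all rows compared did, and 2 of 6 (SOX4 lower, ALDH1A3 higher) at 96 h, where 10.8% did. With C646, 3 of 6 (SOX9, SOX4 and ALDH1A3, all lower) changed at 12 h against 4.38% of rows in either direction and 1.62% lower, and 2 of 6 (SOX9 and SOX4, lower) at 96 h against 3.27% and 1.28%. In PANC1 ICG-001 changed 0 of 5 genes at 12 h, where 2.67% of rows changed, and 0 of 5 at 96 h, where 7.84% did. C646 changed SOX9 alone there, lower, 1 of 5 at 12 h against 7.08% of rows in either direction and 2.85% lower, and 1 of 5 at 96 h against 4.22% and 1.25%. In at least 1 of the 4 drug comparisons of a line, 3 of 6 genes changed in HCT116 (16% of 18048 rows compared) and 1 of 5 in PANC1 (12.8% of 18197). Shares of rows that changed are of the rows compared, here and below. The median log2 ratio of all rows was between -0.02 and 0.00 in these comparisons. Most rows compared were dimmer than these genes, and background left in the signal lowers the ratios of dim rows. The shares of rows, here and below, may thus be lower than those of rows as bright as these genes. At each time the 2 drugs were set against the same DMSO column, so their values are not independent of each other.

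**Figure D4:**
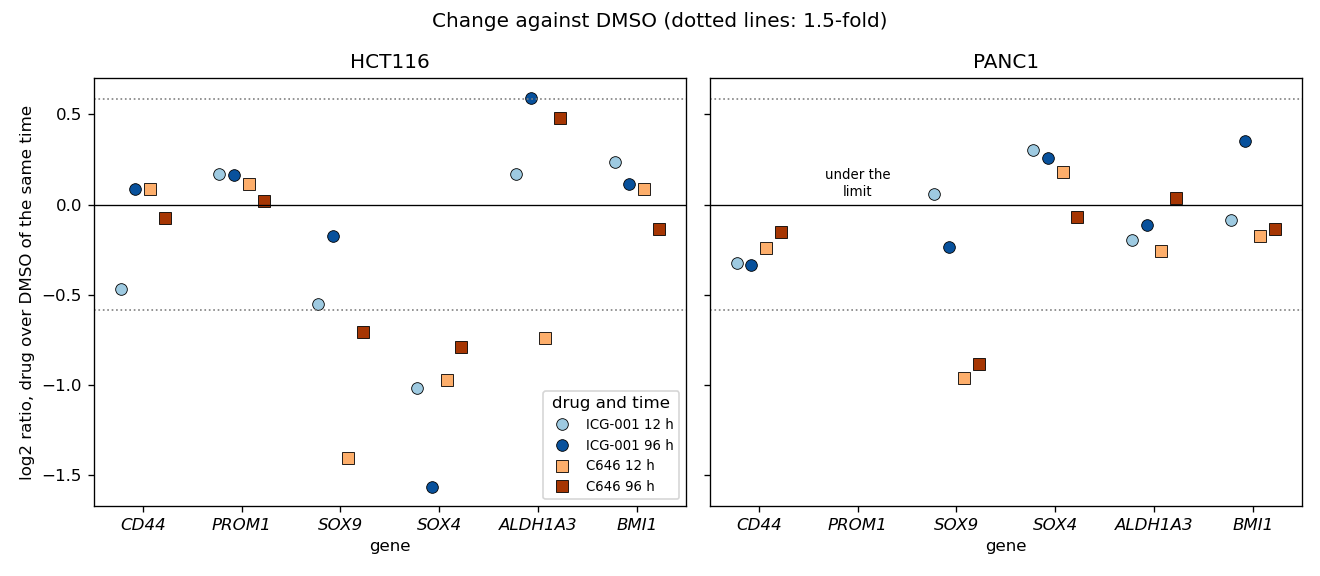
Log2 ratio of each drug column to the DMSO column of the same line and time for the 6 genes above the detection limit, with dotted lines at 1.5-fold. SOX4 in HCT116 and SOX9 with C646 in both lines lie under the lower line, CD44, PROM1 and BMI1 stay between the lines, and no error can be given.

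The drugs were next set against each other at matched dose and time, in 4 comparisons without a test. In HCT116 at 12 h, SOX9 and ALDH1A3 were higher in ICG-001 than in C646 (2 of 6, against 6.63% of rows), with log2 ratios of 0.85 and 0.91. At 96 h SOX4 alone differed (1 of 6, against 6.83%), at a 1.71-fold lower signal in ICG-001. In PANC1 SOX9 alone differed, at both times, with log2 ratios of ICG-001 to C646 of 1.02 at 12 h (1 of 5, against 2.66% of rows) and 0.64 at 96 h (1 of 5, against 7.26%). For SOX4 in HCT116 at 12 h, the signals of 1742 and 1792 gave a log2 ratio of -0.04. BMI1, PROM1 and CD44 were under 1.5-fold in all of these comparisons, with the most extreme log2 ratios being -0.55 for CD44 in HCT116 at 12 h and 0.48 for BMI1 in PANC1 at 96 h. After normexp background correction that CD44 ratio was -0.59 and just past 1.5-fold.

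Between 12 and 96 h in DMSO, which differed in culture density as well as duration, 0 of 6 genes changed in HCT116 (3.28% of all rows compared) and 0 of 5 in PANC1 (1.37%). The largest log2 ratios were 0.53 for SOX9 and 0.37 for SOX4 in HCT116, and -0.45 for ALDH1A3 in PANC1. In drug, CD44, SOX9 and ALDH1A3 were higher at 96 than at 12 h in ICG-001 in HCT116 (3 of 6, against 7.22% of rows), with log2 ratios of 0.83, 0.90 and 0.73. SOX9 and ALDH1A3 were higher at 96 h in C646 (2 of 6, against 7.45%), by 1.22 and 1.53 on the log2 scale. In PANC1, 0 of 5 changed with time in ICG-001 (4.23% of rows) and 0 of 5 in C646 (0.51%).

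Over all 6 columns of HCT116, the highest signal of SOX9 was 3.81 times its lowest, that of ALDH1A3 3.11 times and that of SOX4 2.96 times. These ratios exceeded those of 99.3%, 98.4% and 98.1% of the 12537 rows above the limit in all 6 columns. Background left in the signal lowers such ratios for dim rows, so the ranks of these brighter genes, here and in PANC1, may be too high. In PANC1 the ratio was 2.02 for SOX9, above 93.2% of 12977 rows, and 1.39 to 1.48 for CD44, BMI1, SOX4 and ALDH1A3, against a median of 1.32. Across the 12 columns, with each line centred on its mean log2 signal, Pearson's r between 2 of the 5 genes detected throughout was highest for SOX9 and ALDH1A3 (0.64) and between -0.28 and 0.41 for the rest. The columns of a line share their cells and their normalization, and these values are descriptions.

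Among 7929 rows detected in all columns and carrying a current RefSeq symbol, the patterns most like each gene over the same 12 centred columns were as follows. CD44 was most like ABHD6 (r = 0.95), CXADR (0.92) and ENAH (0.92). SOX9 was most like SH2B3, ZXDB and TOX2 (each 0.95). SOX4 was most like FGF11 and USP46 (each 0.94), ALDH1A3 like RPS6KA5, PTTG1IP and CAPRIN2 (each 0.90), and BMI1 like DR1 (0.92), CEBPD (0.91) and HEG1 (0.90).

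Genes acting with these markers were summarised in lists. Among 15 crypt stem cell genes, 9 exceeded the limit in at least 1 HCT116 column. Of these, EPHB2, MSI1, LRIG1, RNF43, ZNRF3 and CDCA7 did so in all 6. In PANC1, 6 exceeded it in at least 1 column, and EPHB2, LRIG1, ZNRF3 and CDCA7 in all 6. LGR5 and OLFM4, markers of cycling crypt base cells, were among those at or under the limit in all 12 columns. Of this list 9 genes were compared in HCT116 and 6 in PANC1. CDCA7 alone changed against DMSO, at 1036 against 684 in HCT116 ICG-001 96 h, a 1.51-fold ratio just past the threshold. That DMSO column was the lowest of HCT116 for CDCA7, whose signals there ran from 684 to 1709. Among 18 other pluripotency genes, 5 were compared in HCT116 and 6 in PANC1, and 0 changed against DMSO. In HCT116 at 12 h, 1 of 5 was higher in ICG-001 than in C646, against 6.63% of rows. In DMSO there, 1 of 5 was higher at 96 than at 12 h, against 3.28%. KLF4, a factor of both gut differentiation and pluripotency, was detected throughout, at 440 to 1316 in HCT116 and 149 to 219 in PANC1. Of 16 other cancer stem cell markers, 3 of 13 changed in HCT116 (ITGB1 higher, CD24 and NES lower). There 16% of all rows compared changed in at least 1 drug comparison. In PANC1 4 of 14 changed (CD24, EPCAM, ANPEP and NES, all lower), against 12.8% of all rows compared. In HCT116 ICG-001 96 h, ITGB1, an integrin subunit, was at 4086 against 2326 in DMSO, and CD24, a small surface glycoprotein, at 406 against 741. ANPEP, an aminopeptidase also called CD13, was at 802 in PANC1 C646 12 h against 1954 in DMSO.

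Of 11 CD44 ligand and partner genes compared in HCT116, 6 changed in at least 1 drug comparison (16% of all rows compared did) and 5 in none. HAS3, ESRP1 and VCAN were higher and HMMR, MSN and RDX lower. In PANC1 2 of 9 changed (12.8% of all rows compared), HAS3 and MSN, both lower. HAS3, which makes hyaluronan, was at 1192 in HCT116 ICG-001 96 h against 552 in DMSO. HMMR, another hyaluronan receptor with a role on the mitotic spindle, was at 671 against 1528 in the same columns. MSN, which ties CD44 to actin, was at 635 in HCT116 C646 12 h against 1566 in DMSO.

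Of the other SOX genes, 0 of 6 reached 1.5-fold in HCT116, where 16% of all rows compared did in at least 1 drug comparison. In PANC1 3 of 6 changed, against 12.8% of all rows compared. SOX8 was at 448 in ICG-001 96 h against 214 in DMSO, SOX18 at 1204 in C646 12 h against 631, and SOX21 at 266 in ICG-001 96 h against 531. Of the other aldehyde dehydrogenases, 2 of 14 changed in HCT116 and 1 of 12 in PANC1, all higher. Neither share was above that of all rows compared. ALDH3A2, which oxidises fatty aldehydes, was at 1113 in HCT116 ICG-001 96 h against 552 in DMSO, and ALDH2, the mitochondrial enzyme of acetaldehyde, at 370 in PANC1 ICG-001 96 h against 170.

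In the retinoid pathway, which supplies the substrate of ALDH1A3 and carries its product, 6 of 10 genes changed in HCT116 and 4 of 12 in PANC1. Among those of HCT116, RDH10 and RXRB were higher, CRABP2 and CYP26B1 lower, and DHRS3 higher in 1 comparison and lower in another. CRABP2, which carries retinoic acid to the nucleus, was at 1765 in HCT116 ICG-001 96 h against 4981 in DMSO, whereas DHRS3, which reduces retinaldehyde back to retinol, was at 1492 against 655. Among those of PANC1, CRABP2, CYP26B1 and RXRB were higher. Of the Polycomb partners and targets of BMI1, 2 of 25 changed in HCT116 (PCGF6 higher, at 942 against 623 in ICG-001 96 h, and PHC2 lower, at 186 against 285 in C646 12 h) and 0 of 23 in PANC1. CDKN2A, the locus repressed by BMI1 in many cells, was at 209 to 303 in HCT116 and under the limit in all PANC1 columns (118 to 123). CDKN2B, of the same list, was likewise at 161 to 251 in HCT116 and under the limit in all PANC1 columns (126 to 129). What lies behind either difference between the lines was not tested. Whether the DNA of these loci is intact in each line was not measured here. These shares are to be read beside the 16% of HCT116 rows compared and 12.8% of PANC1 rows compared that changed in at least 1 drug comparison.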

How the data were processed

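The deposited table holds linear signal intensity, with a single value for each gene name, in 12 columns, all mapped to their samples by the labels. To make it, the authors quantile normalized the arrays in GenomeStudio, left the background in, and averaged replicate arrays. The genome build behind the probes and the GenomeStudio version are not given in the sources used here, and values of single arrays were not used here. Background left in the signal makes ratios of dim genes understate their changes.

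A row entered a comparison of columns when at least 1 of the columns was above its detection limit, and it was called changed at a ratio of at least 1.5 either way. All 10 genes matched a current RefSeq symbol. Every one of them is named. From each list up to 3 genes with the largest log2 ratio among those changed with a drug are given with values, and for each gene detected throughout the 3 rows most like it. Some genes that this rule names are not reported here. The genes and lists were chosen with earlier results of these data known. LGR5, OLFM4, KLF4, CDKN2A, CDKN2B and the genes named without values were added after their values were seen. Alternatives were limits at 5 SD or at the 99th percentile of olfactory receptor rows, thresholds of 1.2-fold and 2-fold, no filter, median centring, quantile normalization over all 12 columns, and normexp (offset 16) with quantile normalization within a line. Scripts were tested on simulated data. Python 3.11.15, numpy 2.4.6, pandas 2.3.3, scipy 1.17.1, matplotlib 3.10.9, R 4.3.3 and limma 3.58.1 were used.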

Additional observations from a re-analysis of the deposited data

How the results depend on the processing

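No paired analysis was possible because each group had 1 column and no result comes from a test, and for the same reason no replicate could be left out. Counts of genes above the limit, 6 in HCT116 and 5 in PANC1, were the same under every alternative run for them. Limits at 5 SD or at the olfactory receptor percentile were higher than the main limit, so they could only have lowered these counts. The alternatives were run for 14 comparisons (drug against DMSO, drug against drug, and the times in DMSO), not for those between lines or between times in a drug. In these 14, counts of changed genes were the same with a limit at 5 SD or at the olfactory receptor percentile, without a filter and after centring. Quantile normalization over all 12 columns gave 2 in HCT116 ICG-001 12 h (SOX9 and SOX4) and 1 in HCT116 ICG-001 96 h (SOX4), and normexp gave 2 in HCT116 ICG-001 12 h and 3 for ICG-001 against C646 in HCT116 at 12 h (CD44 added, lower). At 1.2-fold the counts were 3 in HCT116 ICG-001 12 h, 3 in HCT116 C646 96 h (ALDH1A3 added, higher), 3 between the drugs in HCT116 at 12 h (CD44 added, lower), 2 in PANC1 ICG-001 12 h (CD44 and SOX4) and 2 in PANC1 ICG-001 96 h (CD44 and BMI1). They were 2 and 3 between the drugs at 96 h in HCT116 and PANC1, and 4 and 2 between the times in DMSO. At 2-fold, the count stayed at 1 in HCT116 ICG-001 12 h (SOX4) and between the drugs in PANC1 at 12 h (SOX9). It fell to 1 in HCT116 ICG-001 96 h (SOX4) and HCT116 C646 12 h (SOX9). It fell to 0 in HCT116 C646 96 h, in PANC1 C646 at 12 and 96 h, and between the drugs in HCT116 at 12 and 96 h and in PANC1 at 96 h. Over 77 log2 ratios, 0 changed sign under the 3 settings that alter them. The largest shifts were 0.02 after centring, 0.07 over 12 columns and 0.30 with normexp, where SOX9 in HCT116 C646 12 h went from -1.41 to -1.71. The spread between arrays is unknown, so near-threshold calls (among them ALDH1A3, SOX9 and CDCA7 with ICG-001 in HCT116) have no measured precision. Log2 ratios of rows under the limit, which hold background only, had an SD of 0.063 to 0.075.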

Other observations

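Of the keratin genes in the marker lists (KRT7, KRT8, KRT18, KRT19 and KRT20), KRT7 alone changed against DMSO in HCT116 and KRT8 and KRT19 alone in PANC1. KRT7, a keratin of ductal epithelia, was at 389 in HCT116 ICG-001 12 h against 142 in DMSO, where it was under the detection limit, so that it was at least 2.67-fold higher. In PANC1 ICG-001 96 h, KRT19 was at 5006 against 11273 in DMSO and KRT8 at 2892 against 6010, both keratins of simple epithelium. The adhesion protein EPCAM was at 509 against 871 in the same columns. COL1A1, a collagen chain of mesenchymal cells, was at 379 in PANC1 C646 96 h against 242 in DMSO. These genes were given by the same rule as those of the other lists, and none of the differences has a replicate check.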
